A study of Mus musculus with 12 samples.

Results

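The genes described here encode the major histocompatibility complex (MHC) molecules of the mouse and the proteins that cut, carry and load their peptides. They were chosen by name: every gene probe whose name starts with H2-, together with B2m, Tap1, Tap2, Tapbp, Cd74, Ciita, Psmb8, Psmb9, Psmb10, Psme1 and Psme2, each read from its brightest probe. That rule found 46 genes by the name on the array and 4 more by current symbol, Cd74 (listed as Ii), Ciita (C2ta), Psme2 (Psme2b) and H2-T-ps, which gave 50 of the 28680 genes tested, and all 50 passed the filter on dim probes. They were measured by 73 probes, and 34 genes had 1 probe. By role they are 2 classical class I heavy chains, 25 other class I heavy chains, the class I light chain B2m, 8 genes of class I peptide supply and loading, 4 class II chains and 7 genes of class II loading and regulation. The remaining 3 carry an H2 name, or an older one, but encode no MHC chain: Cfb (listed as H2-Bf), Pfdn6 (H2-Ke2) and H2-Ke6.

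RNA of mammary tumours from 6 strains of female mice was hybridised on two-colour Agilent arrays against Universal Mouse Reference RNA, a commercial mixture. All 6 strains express an activated neu (ErbB2) oncogene from the MMTV promoter, which is active mainly in mammary epithelium. NDL25 is the parental strain, MMTV/neu NDL2-5. The other strains are MMTV/neundl-NYPD, whose receptor has lost the autophosphorylated tyrosines of its tail, and MMTV/neundl-YB, -YC, -YD and -YE, in which a single such tyrosine is restored. Mice had borne tumours for 6 weeks. Each strain gave 2 pools of RNA from 5 tumours each, so the spread between pools is a spread between averages and not between single tumours. Each of the 12 pools was hybridised on 2 arrays with the dyes exchanged. The labels give no inbred background and no H2 haplotype. The comparisons ask how tumours of each altered receptor differ from the parental tumours and from those of the receptor without the sites.

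Class I molecules are a heavy chain paired with B2m, and on almost all nucleated cells they show peptides made inside the cell. The immunoproteasome subunits Psmb8, Psmb9 and Psmb10 and the activator subunits Psme1 and Psme2 make such peptides, Tap1 and Tap2 carry them into the endoplasmic reticulum, and Tapbp (tapasin) holds the heavy chain at the transporter. Class II molecules, paired alpha and beta chains guided by the invariant chain Cd74, are made mainly by macrophages, dendritic cells and B cells, though epithelial cells can make them under interferon gamma, which also raises the class I pathway.

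Values are log2 ratios of tumour over reference, so 0 means equal signal and 1 means a doubling. A ratio describes 1 gene across strains, and levels of different genes were not compared. The labels do not give the dye of the tumour RNA, and it was read from luminal and milk genes, with Lalba on the tumour side and Afp on the reference side on all 24 arrays. Median tumour intensity ran from 365 to 764 units, and 97.3% to 98.9% of gene spots were well above background. Between 58 and 360 gene spots per array were saturated in the tumour channel. By the file headers, images of NYPD were extracted in a session of their own, and strain and session cannot be told apart there. NDL25, YB and YC pool 1 shared another session, YD and YE a further one, and YC pool 2 had 1 array in each of these. YD and YE thus shared no session with NDL25 or YB, and their differences from those strains cannot be told apart from session either. NDL25 pool 1 stood apart for 16 of 28172 genes measured in all pools (0.0568%), being lowest of the 12 by more than a log2 of 1, and 3 of the 16 were heavy chain genes described below. For most of the 16, YB pool 1 was the next lowest.

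Promoter windows from RefSeq (build GRCm38.p6, 250 bases before to 50 after the start) were found for 37 of the 50 genes. Class II promoters are textbook cases of the X and Y boxes, bound by the RFX and NF-Y factors that Ciita joins. The core GCAAC followed by ATTGG on the same strand, with starts 25 to 40 bases apart, was found in 4 of the 7 class II genes with a window and in 0.39% of 32851 promoter windows. The 4 windows are printed because they hold this shared pair, and the values of their genes are given below. Capitals mark both cores. The stretches lie at chr17:34287847-34287924 on the minus strand for H2-Aa, chr17:34305756-34305832 on the plus strand for H2-Eb1, chr17:34092283-34092360 on the plus strand for H2-Oa and chr17:34238798-34238872 on the plus strand for H2-Ob.
H2-Aa: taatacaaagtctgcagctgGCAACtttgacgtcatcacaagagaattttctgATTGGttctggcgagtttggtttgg
H2-Eb1: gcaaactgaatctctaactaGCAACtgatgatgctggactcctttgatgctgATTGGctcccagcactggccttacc
H2-Oa: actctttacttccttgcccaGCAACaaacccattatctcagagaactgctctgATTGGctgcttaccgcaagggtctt
H2-Ob: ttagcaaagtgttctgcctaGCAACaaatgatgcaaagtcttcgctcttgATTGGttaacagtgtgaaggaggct

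The core starts were 33, 32, 33 and 30 bases apart, in that order, and the first core began at -81, -91, -76 and -87 from the gene start. Among class I genes a form of the interferon-stimulated response element was sought on either strand, namely GAAA followed by any 2 bases and a further GAAA. It was present in 4 of 28 class I windows (B2m, H2-T22, H2-T23 and Psme1), in 0 of 7 class II windows and in 3.44% of all windows. The stretches of 3 of these genes are printed as examples of the match, which is in capitals. They lie at chr2:122147528-122147577 on the plus strand for B2m, chr17:36042904-36042953 on the minus strand for H2-T22 and chr17:36032796-36032845 on the minus strand for H2-T23.
B2m: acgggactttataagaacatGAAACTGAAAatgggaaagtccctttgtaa
H2-T22: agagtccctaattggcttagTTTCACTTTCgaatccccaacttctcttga
H2-T23: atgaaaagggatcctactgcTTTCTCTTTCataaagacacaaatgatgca

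Tap1 and Psmb9 start on opposite strands with 225 bases between them. That stretch, chr17:34187331-34187555 in the direction of Tap1, is printed because these neighbours were read side by side across the pools. Capitals mark ATTGG in its reverse form, CCAAT, a pattern that 37.4% of all windows hold on either strand. A match of letters is a description and not a binding site.
Tap1-Psmb9: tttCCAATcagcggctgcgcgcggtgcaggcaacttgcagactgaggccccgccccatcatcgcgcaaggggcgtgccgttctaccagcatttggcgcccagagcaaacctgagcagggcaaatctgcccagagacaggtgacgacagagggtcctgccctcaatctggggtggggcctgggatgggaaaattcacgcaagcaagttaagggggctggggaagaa

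Across the 6 strains 0 of the 50 genes passed limma's F test at an adjusted p under 0.05, against 3.22% of all genes, and the lowest adjusted p was 0.0809, for H2-M9. At an unadjusted p under 0.05 the count was 12 of 50, against 21.3% of all genes. Against NDL25 the tested differences gave 1 call, H2-Aa in YB, where 3.96% of all genes were called and 3.15% were called higher. In NYPD, YC, YD and YE minus NDL25 the count was 0 of 50, against 1.04%, 0.00697%, 0.00697% and 0.0% of all genes, so in the last 3 of these the test called almost nothing anywhere. Against NYPD there was again 1 call, H2-M9 in YB, against 5.13% of all genes called and 4.04% called higher, and 0 of 50 in YC, YD and YE, against 0.0174%, 0.0105% and 1.83%. At an unadjusted p under 0.05 limma gave 5 of the 50 in NYPD minus NDL25, 8 in YB, 21 in YC, 16 in YD and 15 in YE minus NDL25, against 15.7%, 17.3%, 11.3%, 10.4% and 7.59% of all genes. Against NYPD the counts for YB, YC, YD and YE were 6, 9, 4 and 5, against 20.0%, 10.3%, 10.8% and 19.4%. The 5 comparisons against NDL25 share its pools, and the 4 against NYPD share theirs, so they are not independent of each other.

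Class I peptide supply and loading genes were highest in YC. The median log2 ratio of the 8 genes was 0.99 and 0.79 in the pools of YC, 0.60 and 0.75 in YD, 0.57 and 0.67 in YE, 0.40 and 0.41 in NDL25, 0.45 and 0.28 in YB, and 0.65 and 0.32 in NYPD. In bulk tumour RNA, fewer cells of a type and less RNA per cell cannot be told apart. Both YC pools lay above both NDL25 pools for 8 of the 8 genes, against 21.7% of all genes, and for 7 of 8 in YD and 7 of 8 in YE, against 22.3% and 20.5%. In YB it was 0 of 8 and in NYPD 1 of 8, against 22.5% and 20.3%. The median difference from NDL25 was 0.76 in YC, 0.42 in YD, 0.50 in YE, 0.04 in YB and 0.04 in NYPD, and no single gene passed the test. Against NYPD both pools were higher for 6 of 8 genes in YC and 0 of 8 in YB, beside 21.1% and 25.4% of all genes, and for 4 in YD and 3 in YE, beside 22.4% and 27.7%.

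Psmb8, a catalytic subunit of the immunoproteasome, read 2.68 and 2.32 in the pools of YC, 2.04 and 2.49 in YE and 1.95 and 2.16 in YD. Its ratios were 1.34 and 1.88 in NDL25, 1.68 and 1.55 in YB and 1.74 and 1.16 in NYPD. The YC, YD and YE pools therefore lay above all pools of the other 3 strains. The YC mean exceeded NYPD by 1.05 ± 0.26 (SE, n = 2 pools each, limma adjusted p = 0.219) and NDL25 by 0.89 ± 0.26 (adjusted p = 0.248). A second Psmb8 probe gave YC minus NDL25 as 0.72.

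Psmb9, another catalytic subunit, gave 2.21 and 2.04 in YC, 1.94 and 2.38 in YE, 1.68 and 1.76 in YD and 1.41 and 1.38 in YB. In NDL25 it read 0.79 and 1.62, and in NYPD 2.01 and 0.66. The pools of NYPD and NDL25 thus spanned more than the gap between most strain means. Tap1, which starts across the short stretch printed above, had 2.36 and 2.32 in YC, 1.90 and 2.56 in YE, 1.71 and 1.88 in YD and 1.21 and 1.48 in YB. It too was split in NDL25 (0.68 and 2.07) and in NYPD (2.03 and 1.02), with the same pool higher as for Psmb9 in each of the 2 strains. Without NDL25 pool 1 the Tap1 difference of YC from NDL25 was 0.26 in place of 0.96.

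Tap2, the other subunit of the transporter, was less variable. Its ratio was 1.0 and 0.72 in YC, 0.55 and 0.71 in YE, 0.52 and 0.55 in YD, 0.63 and 0.38 in NYPD, 0.34 and 0.26 in YB and 0.17 and 0.30 in NDL25. The YC pools were the highest of the 12, and the limma adjusted p of YC minus NDL25, 0.115, was the lowest of the 8 genes. Tapbp, the tapasin gene, showed 0.98 and 0.87 in YC, 0.68 and 0.81 in YD, 0.59 and 0.63 in YE, 0.50 and 0.52 in NDL25, 0.47 and 0.31 in YB and 0.66 and 0.25 in NYPD. A dimmer Tapbp probe had nearly equal strain means in YC and NYPD, -0.16 and -0.18, and gave YC minus NDL25 as 0.33. On the brightest probe YC was again highest in both pools. There its mean exceeded NDL25 by 0.41 ± 0.13 (limma adjusted p = 0.269) and NYPD by 0.47 ± 0.13 (adjusted p = 0.251). Without NYPD pool 1 the difference from NYPD passed the test, at an adjusted p of 0.0309.

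Psmb10, the third catalytic subunit, had 0.91 and 0.32 in YC, 0.49 and 0.45 in YD, 0.39 and 0.26 in YE, 0.33 and -0.36 in YB, 0.49 and -0.54 in NYPD and -0.34 and -0.25 in NDL25. NDL25 lay below the pools of YC, YD and YE, and the pools of NYPD and YB were far apart. Psme1, which encodes a subunit of the proteasome activator, read 0.81 and 0.47 in YC, 0.44 and 0.69 in YD, 0.32 and 0.53 in YE, 0.30 and 0.00 in NDL25, 0.28 and -0.09 in NYPD and 0.40 and -0.07 in YB. Its partner Psme2 gave 0.84 and 0.32 in YC, 0.41 and 0.56 in YD, 0.48 and 0.52 in YE, 0.07 and 0.14 in NDL25, 0.37 and -0.52 in NYPD and 0.44 and -0.06 in YB. Both lay higher in all pools of YC, YD and YE than in both pools of NDL25.

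**Figure D1:**
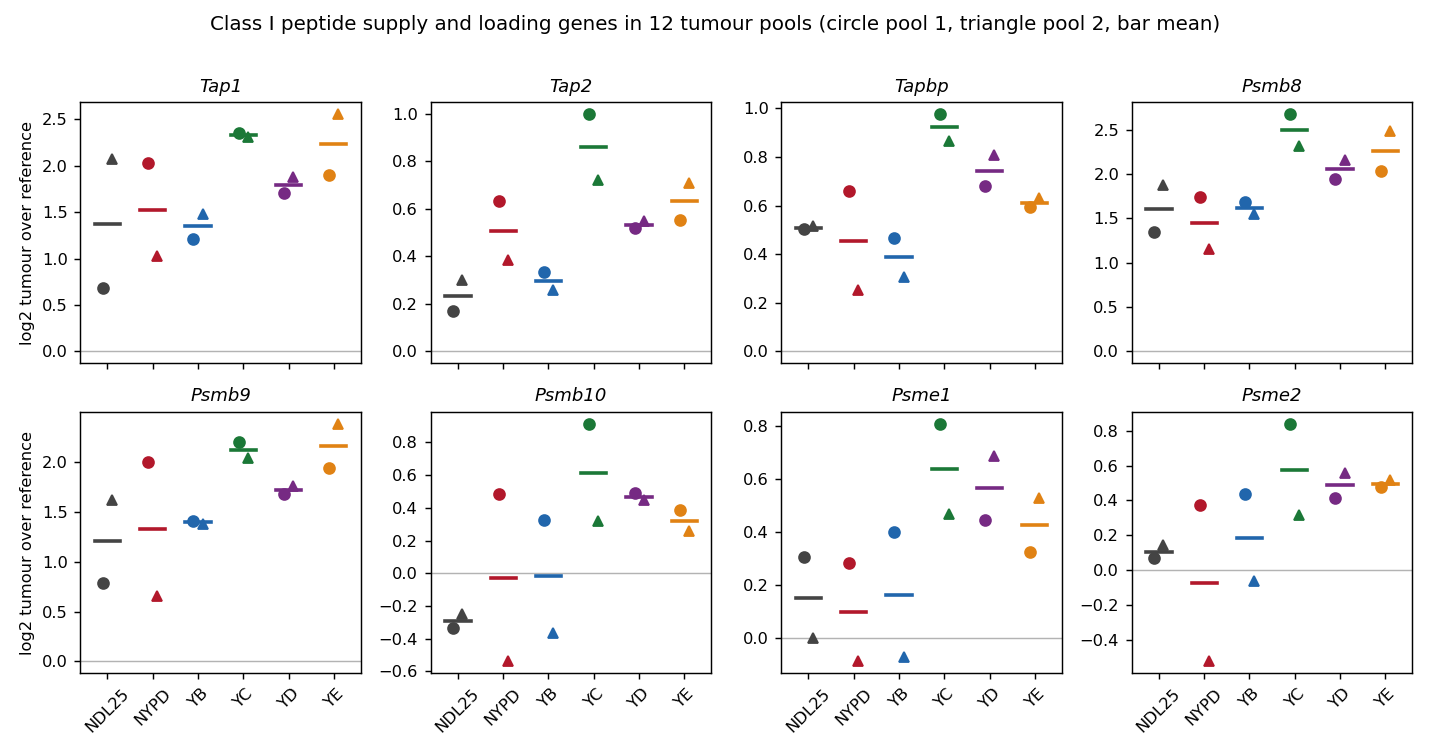
Log2 tumour over reference (y axis, no unit) of the 8 peptide supply and loading genes in the 6 strains (x axis); circles are pool 1, triangles pool 2 and bars the mean of both. YC pools reach 2.68 for Psmb8 and 1.0 for Tap2, and NYPD pool 1 lies above pool 2 for all 8 genes.

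The split between the NYPD pools was shared by interferon-induced genes outside the chosen set. Igtp, an interferon-induced GTPase, read 4.01 in NYPD pool 1 and 0.51 in pool 2, and Gbp3 3.81 and 0.66. In the other strains Igtp read 3.45 and 3.21 in YC, 2.40 and 2.9 in YE, 2.13 and 2.51 in YD, 1.63 and 2.08 in NDL25 and 1.12 and 0.82 in YB. Gbp3 had another order, with NDL25 (3.25 and 3.18) above YC (2.84 and 2.68). Irf1, a factor that acts on class I genes, read 0.67 and -0.58 in NYPD and 0.31 and 0.54 in YC, against -0.23 in both NDL25 pools. Ifng itself lay between -0.01 and 0.25 in the 12 pools. The list of 16 interferon gamma response genes had a median difference from NDL25 of 0.13 in YC and 0.15 in NYPD, and 0 of the 16 passed limma's test in any of the 9 comparisons. The 2 list genes and comparisons with the smallest p were Ifngr2 in YC minus NYPD (-0.49, limma adjusted p = 0.135) and in NYPD minus NDL25 (0.48, adjusted p = 0.0636). The part of interferon signalling in the strain differences was not tested.

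The constitutive proteasome subunits Psmb5, Psmb6 and Psmb7 and the activator gene Psme3 gave 0 of 4 passing in all 9 comparisons. Their median difference in YC minus NDL25 was -0.01, beside 0.76 for the peptide supply genes. Psmb6 in YE minus NYPD came closest, at 0.33 with an adjusted p of 0.0630. The partners of class I loading (Calr, Canx, Pdia3, Erap1 and Tapbpl) also gave 0 of 5 passing, with Pdia3 in YE minus NYPD closest (-0.73, adjusted p = 0.0545). Calr in YB minus NYPD read -0.89, with an adjusted p of 0.0631.

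The classical class I heavy chains and B2m were too bright to compare. Spots of H2-K1 were saturated in the tumour channel on 24 of 24 arrays, those of B2m on 24 and those of H2-D1 on 22, and B2m was saturated in the reference channel on 12. H2-K1 read from 1.05 to 1.62 over the 12 pools, with a median of 1.28. H2-D1 read from 1.69 to 2.11, with a median of 1.80. With a saturated tumour channel these ratios, and strain differences in them, have no measured size. For B2m no fold was taken.

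Of the 27 heavy chain genes, 9 were saturated on at least 1 array and 18 on none. Probes of this family can bind transcripts of near-identical copies, so a reading belongs to a probe and its close relatives rather than surely to 1 gene. Among the 18, the 7 genes H2-M1, H2-M10.1, H2-M10.3, H2-M10.4, H2-M10.5, H2-M10.6 and H2-T3 stayed between -0.28 and 0.27 in all pools. Several were dim, with a median tumour signal of 99 units for H2-M10.6, 129 for H2-M10.1, 173 for H2-T3 and 182 for H2-M10.5. A ratio near 0 at such signal does not show equal expression. The median difference of the 18 from NDL25 was 0.10 in YC, 0.12 in YD, 0.08 in YE, 0.11 in YB and 0.04 in NYPD.

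On the brightest probe of each gene, the widest spread between strain means lay in H2-Bl, H2-D4, H2-Q2 and H2-M3. H2-D4 read -0.15 and 2.23 in NDL25, 1.85 and 2.03 in NYPD, 1.67 and 2.3 in YB, 3.14 and 2.9 in YC, 2.87 and 2.48 in YD and 2.72 and 2.55 in YE. The YC, YD and YE pools were above all others, and NDL25 pool 1 was far below every pool. H2-Q2 had the same order, with -0.12 and 2.19 in NDL25, 1.64 and 1.96 in NYPD, 1.47 and 2.26 in YB, 3.09 and 2.79 in YC, 2.86 and 2.34 in YD and 2.72 and 2.48 in YE. H2-Bl gave -0.41 and 1.78 in NDL25, 1.21 and 1.54 in NYPD, 1.10 and 1.87 in YB, 2.87 and 2.47 in YC, 2.59 and 1.94 in YD and 2.48 and 2.19 in YE. Its dimmer probes did not share this size or order. They gave YC minus NDL25 as 0.77 and 0.82, against 1.98 on the brightest probe. Their NYPD minus NDL25 was -0.13 and -0.11, against 0.69. RefSeq lists H2-Bl and H2-Q5 as transcribed pseudogenes.

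Of the 27 heavy chain genes 13 were lowest of all 12 pools in NDL25 pool 1, against 8.31% of all genes, and that pool set the size of these differences. For H2-D4, YC minus NDL25 was 1.98 with both NDL25 pools and 0.79 without pool 1, and YB minus NDL25 turned from 0.94 to -0.25. For H2-Q2 the YC difference went from 1.90 to 0.74 and for H2-Bl from 1.98 to 0.89. With both pools the limma adjusted p of YC minus NDL25 was 0.289 for H2-D4, 0.313 for H2-Q2 and 0.280 for H2-Bl. A dimmer H2-Q10 probe followed the same course, with -0.13 and 2.09 in NDL25, while the brightest H2-Q10 probe, saturated in the tumour channel on 9 of 24 arrays and on 1 of the 4 of NDL25, read 1.06 and 1.98. The remaining H2-Q10 probes had smaller gaps in NDL25, with 0.52 and 1.17, 0.95 and 1.75, and 1.61 and 1.96. The depth of the dip thus differed between probes of 1 gene. The other genes that were lowest in NDL25 pool 1 by more than a log2 of 1 included Gnas, Rpl4 and Cct3, which encode a G protein subunit, a ribosomal protein and a chaperonin subunit. In that pool they read -1.84, -2.51 and -2.35, and in NDL25 pool 2 they read 1.08, -0.21 and -0.13. YB pool 1 was the next lowest for H2-D4, H2-Q2, H2-Bl, Gnas and Cct3. Rpl4 read -1.09 in YB pool 1 and 0.71 and 0.12 in YC, so low YB pool 1 and high YC values were not particular to heavy chains. The cause was not tested.

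H2-M3, which presents formylated peptides, read -1.11 and -0.77 in NDL25, -0.32 and -0.74 in NYPD, -0.09 and -0.67 in YB, 0.46 and -0.16 in YC, -0.33 and -0.56 in YD and -0.21 and -0.38 in YE. On this brightest probe all 10 pools of the other strains lay above both NDL25 pools, a pattern seen in 1.81% of all genes measured in every pool. The margin was narrow for NYPD pool 2, at -0.74 against -0.77. The H2-M3 difference in YC minus NDL25 was 1.10 ± 0.27 (limma adjusted p = 0.182). A dimmer H2-M3 probe gave 1.44 for it but did not show the pattern. There NDL25 pool 2 (-0.26) lay above NYPD pool 1 (-0.43) and YB pool 1 (-0.32). H2-M9 was dim, with a median tumour signal of 254 units, and read 0.51 and 0.67 in YB, 0.61 and 0.63 in YD, 0.52 and 0.40 in YE, 0.38 and 0.35 in YC, 0.39 and 0.36 in NDL25 and 0.28 and 0.19 in NYPD. It rose in YB against NYPD by 0.36 ± 0.07, a 1.28-fold difference (limma adjusted p = 0.0331). The call held in 7 of 22 alternative settings, with the difference between 0.24 and 0.62. In YD the difference from NYPD was 0.39 ± 0.07 and did not pass (adjusted p = 0.113). H2-Q1 has 1 value missing, in YD pool 2, where a spot was marked as an outlier.

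**Figure D2:**
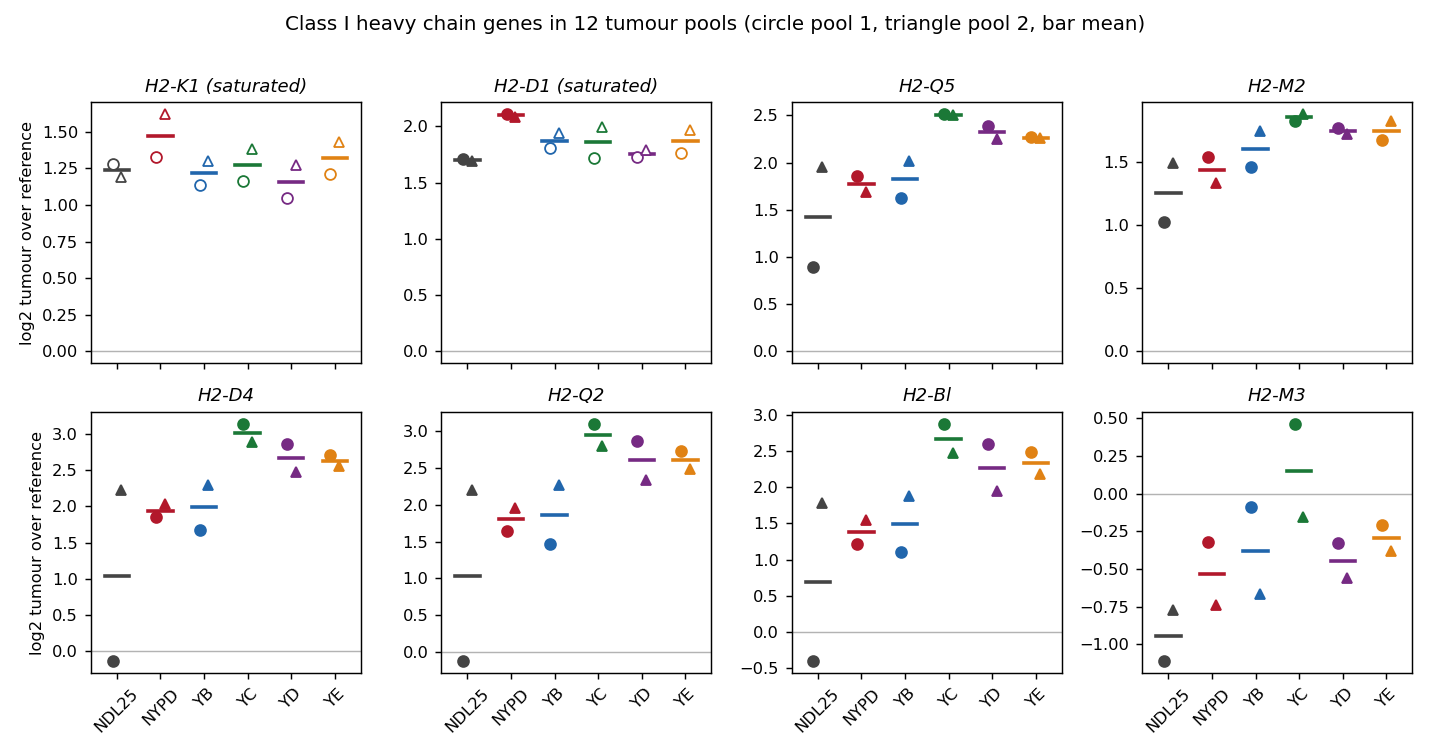
Log2 tumour over reference (y axis) of 8 class I heavy chain genes in the 6 strains (x axis); circles are pool 1, triangles pool 2, bars the mean, and hollow symbols mark strains with all 4 arrays saturated. H2-K1 and H2-D1 are limited by saturation, and NDL25 pool 1 sits at -0.15 for H2-D4 and -0.41 for H2-Bl.

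By the median of the 11 genes, class II was lowest in NDL25, and YE came next. The median of the 11 genes was 0.17 and 0.19 in the NDL25 pools and 0.46 and 0.38 in YE, against 1.27 and 0.73 in NYPD, 1.15 and 0.77 in YC, 0.93 and 1.01 in YD and 0.54 and 0.61 in YB. Over all genes tested the pool medians were between -0.00 and 0.03. Both pools lay above both NDL25 pools for 9 of 11 genes in YC, 9 in YD, 8 in YE, 6 in YB and 6 in NYPD, beside 21.7%, 22.3%, 20.5%, 22.5% and 20.3% of all genes. For 4 genes, Cd74, H2-Aa, H2-Ea and H2-DMa, all 10 other pools lay above both NDL25 pools, beside 1.81% of all genes. Not every gene shared the order of the median. H2-Ob had its highest strain mean in NDL25 (-0.16), and H2-Oa, H2-DMb1 and H2-DMb2 had their lowest in YB.

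Cd74, the invariant chain, varied most. It read 0.26 and -0.01 in NDL25, 0.78 and 0.38 in YE, 2.55 and 1.46 in NYPD, 1.98 and 1.15 in YB, 1.84 and 1.65 in YC and 1.58 and 1.66 in YD. The pools of NDL25 and YE lay below all 8 pools of the other strains. Its strain mean was 3.68-fold higher in NYPD than in NDL25 (log2 difference 1.88 ± 0.37, limma adjusted p = 0.0670), 3.07-fold in YC (adjusted p = 0.162), 2.82-fold in YD (0.230 on the same test) and 2.71-fold in YB (0.0867), none of which passed. YE minus NYPD was -1.42 ± 0.37 (adjusted p = 0.103), and YE minus NDL25 was 0.46 ± 0.37 (adjusted p = 0.850). Over the alternative settings NYPD minus NDL25 lay between 1.34 and 2.42, always positive, with adjusted p from 0.0333 to 0.236, and 4 of 22 settings called it.

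H2-Aa, the alpha chain of the I-A molecule, read 2.52 and 2.46 in NDL25, 2.96 and 2.54 in NYPD, 3.12 and 3.04 in YB, 2.94 and 2.87 in YC, 2.87 and 3.0 in YD and 2.70 and 2.80 in YE. It rose in YB against NDL25 by 0.59 ± 0.13, which is 1.51-fold (limma adjusted p = 0.0456). Its size depended on the processing. After scaling between arrays the difference was 0.14 (adjusted p = 0.771), and in the authors' deposited values, whose further steps are not given in the sources used here, it turned to -0.16 (adjusted p = 0.794). A total of 4 of 24 alternative settings called it. A second H2-Aa probe gave 0.64 for the same difference and 0.81 for YD minus NDL25.

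H2-Ab1, the beta chain of I-A, had 1.82 and 1.98 in NDL25, 2.47 and 1.96 in NYPD, 2.68 and 2.47 in YB, 2.41 and 2.38 in YC, 2.28 and 2.44 in YD and 2.01 and 2.13 in YE on its brightest probe. NYPD pool 2 overlapped NDL25 and all pools of YB, YC, YD and YE lay above it. YB minus NDL25 was 0.67 ± 0.16 (limma adjusted p = 0.0663), and it was 0.29 after scaling between arrays. The 3 dimmer H2-Ab1 probes gave larger differences in YC minus NDL25, at 1.55, 1.61 and 1.29 against 0.49. For 2 of these probes NDL25 pool 1 was again low, at 0.58 and 1.01, against 1.12 and 1.67 in pool 2.

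H2-Ea, which RefSeq lists as a transcribed pseudogene, was dim, with a median tumour signal of 191 units. It read 0.17 and 0.40 in NDL25, 0.46 and 0.42 in YE, 1.68 and 0.73 in NYPD, 0.89 and 0.66 in YB, 0.82 and 0.62 in YC and 0.93 and 1.01 in YD. The order of strains was that of Cd74 at its low end, with NDL25 and YE below the other pools. NYPD minus NDL25 was 0.92 ± 0.27 (limma adjusted p = 0.153). H2-Eb1, the beta chain of I-E, stayed near the reference, at -0.05 and 0.06 in NDL25, 0.18 and -0.11 in NYPD, 0.32 and 0.39 in YB, 0.13 and 0.21 in YC, 0.04 and 0.12 in YD and 0.01 and 0.19 in YE. YB was highest in both pools, by 0.35 ± 0.11 over NDL25 (adjusted p = 0.135).

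**Figure D3:**
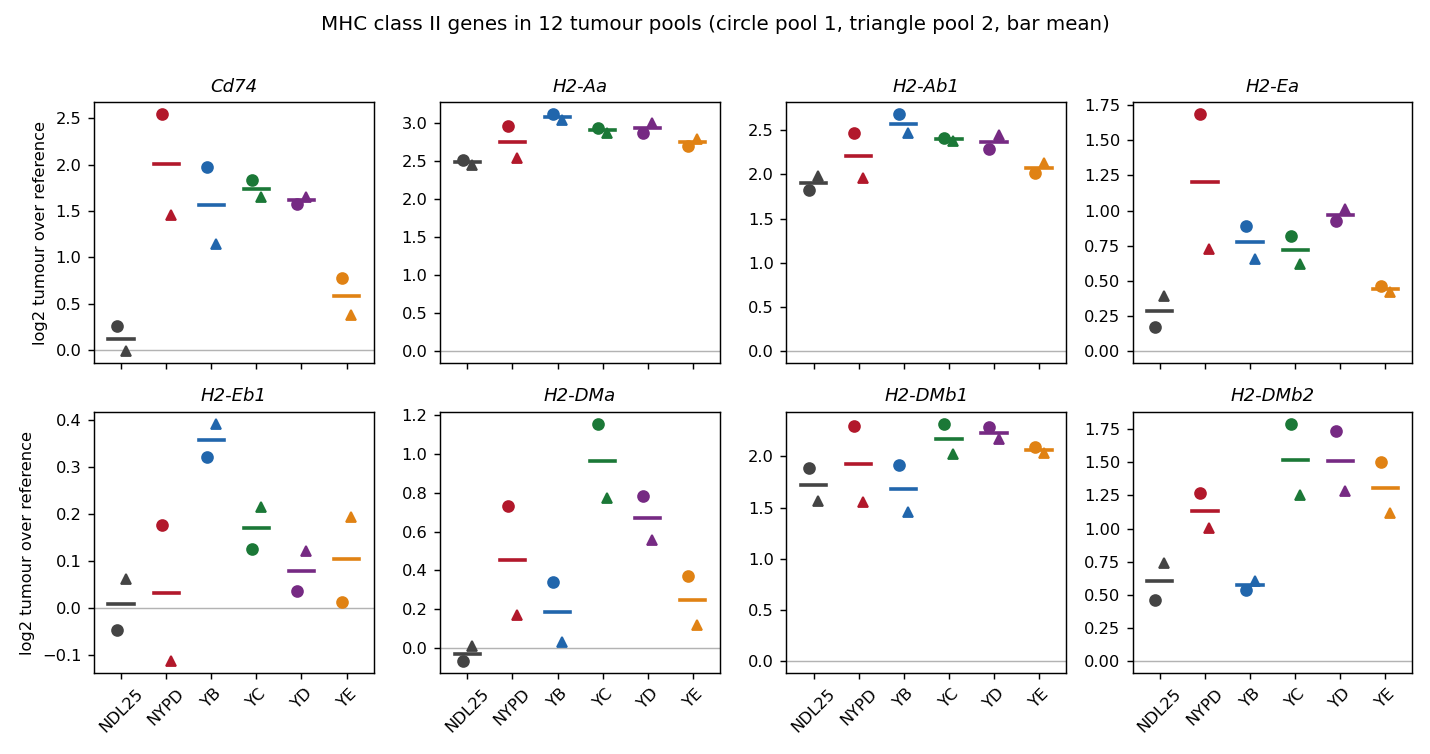
Log2 tumour over reference (y axis, own range in each panel) of 8 class II genes in the 6 strains (x axis); circles are pool 1, triangles pool 2 and bars the mean of both. For Cd74 the NDL25 and YE pools lie between -0.01 and 0.78 and the other 8 pools between 1.15 and 2.55.

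The loading genes H2-DMa and H2-DMb2, whose products exchange the Cd74 remnant for a peptide, had an order of their own. H2-DMa read 1.15 and 0.77 in YC, 0.78 and 0.56 in YD, 0.73 and 0.17 in NYPD, 0.37 and 0.12 in YE, 0.34 and 0.03 in YB and -0.07 and 0.01 in NDL25. H2-DMb2 read 1.79 and 1.25 in YC, 1.73 and 1.28 in YD, 1.5 and 1.11 in YE, 1.27 and 1.0 in NYPD, 0.54 and 0.61 in YB and 0.46 and 0.74 in NDL25. For both genes YC and YD had the highest means, and for H2-DMb2 the YB pools lay within the range of NDL25. YC minus NDL25 was 0.99 ± 0.21 for H2-DMa (limma adjusted p = 0.140) and 0.92 ± 0.23 for H2-DMb2 (adjusted p = 0.193). H2-DMb1, the other beta chain of H2-DM, gave 2.31 and 2.02 in YC, 2.29 and 2.17 in YD, 2.09 and 2.03 in YE, 2.3 and 1.55 in NYPD, 1.91 and 1.46 in YB and 1.88 and 1.56 in NDL25.

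The modulators H2-Oa and H2-Ob, which restrain H2-DM and are known from B cells, stayed near or below the reference. H2-Oa lay between -0.26 and -0.02 in the 12 pools and H2-Ob between -0.65 and 0.05. H2-Oa read -0.17 and -0.10 in NDL25, -0.06 and -0.10 in NYPD and -0.05 and -0.26 in YB. It read -0.06 and -0.12 in YC, -0.02 in both YD pools and -0.09 in both YE pools. H2-Ob read 0.05 and -0.36 in NDL25, -0.31 and -0.02 in NYPD and -0.06 and -0.51 in YB. It read -0.21 and -0.65 in YC, -0.33 and -0.57 in YD and -0.21 and -0.57 in YE. Ciita, the transactivator of class II genes, lay between -0.07 and 0.43, with strain means from 0.12 in NDL25 to 0.34 in YC. Its probe was dim, with a median tumour signal of 339 units, and no comparison passed. Nfya encodes a subunit of NF-Y, which binds the Y box of these promoters. Nfya was higher in NYPD than in NDL25 by 0.37 ± 0.065 (limma adjusted p = 0.0498) and lower in YE than in NYPD, with a difference of -0.49 ± 0.065 (adjusted p = 0.0215). In each of these 2 comparisons 1 of the 9 measured genes of the regulator list was called, and 0 of 9 in the other 7. Over all genes 1.04% were called in NYPD minus NDL25 and 1.83% in YE minus NYPD.

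**Figure D4:**
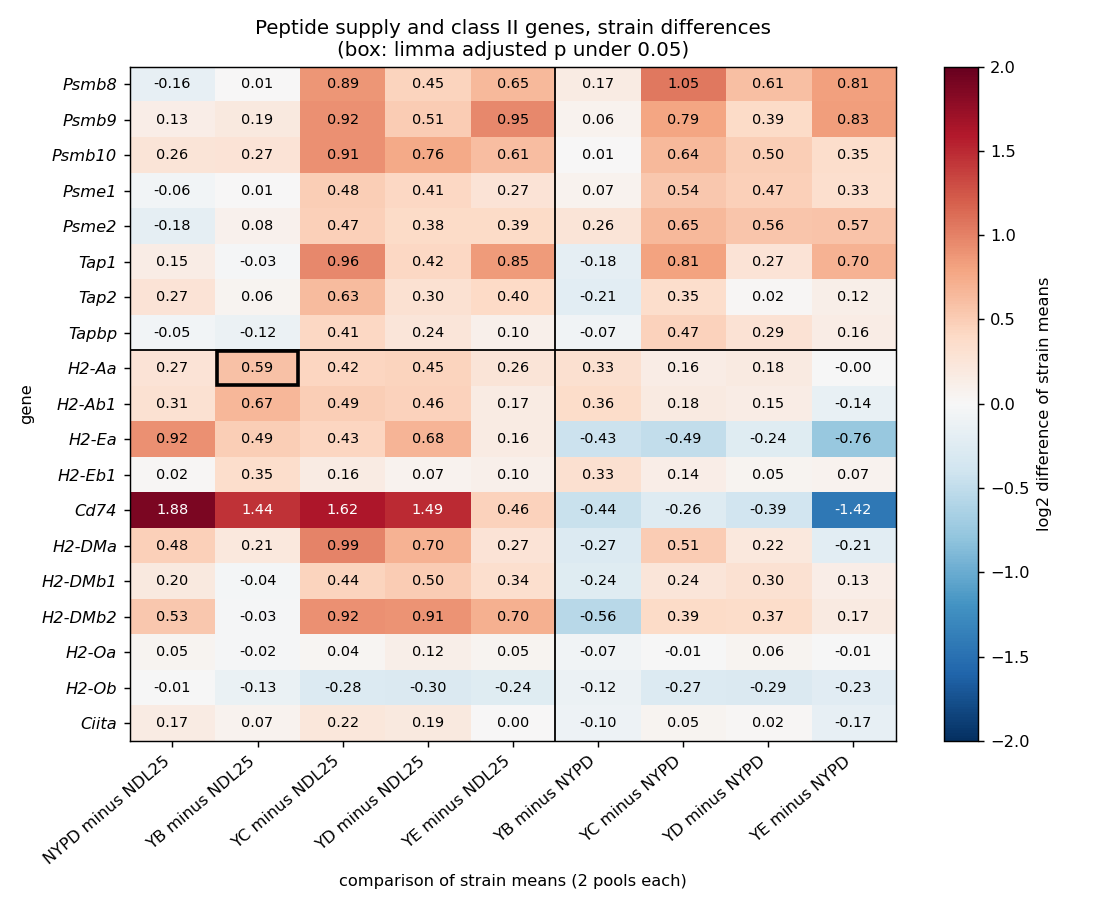
Log2 difference of strain means (colour and number) for 8 peptide supply genes above the line and 11 class II genes below it (y axis) in 9 comparisons (x axis); a box marks limma's adjusted p under 0.05. The sole box is H2-Aa in YB minus NDL25 at 0.59, and the largest difference is Cd74 in NYPD minus NDL25 at 1.88.

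The proteases and other partners of the class II pathway gave 1 of 10 genes higher in NYPD minus NDL25 and 1 of 10 lower in YE minus NYPD, both times Ctsb, where 1.04% and 1.83% of all genes were called. Ctsb, a lysosomal protease, read 0.58 and 0.68 in NYPD, 0.00 and -0.16 in NDL25 and -0.43 and -0.45 in YE. It rose by 0.71 ± 0.10 in NYPD against NDL25 (limma adjusted p = 0.0322), and YE minus NYPD was -1.07 ± 0.10 (adjusted p = 0.0143). Ctss, the protease that trims Cd74, gave 1.52 and 1.57 in NYPD, 0.70 and 0.73 in NDL25 and 0.54 and -0.13 in YE. The median difference of the 10 genes was 0.47 in NYPD minus NDL25 and -0.58 in YE minus NYPD.

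Markers of cells that make class II were read beside these genes. The 10 macrophage markers had pool medians of 1.80 and 1.91 in NDL25, 1.67 and 1.34 in YE, 1.71 and 1.80 in NYPD, 2.41 and 1.88 in YB, 1.59 and 1.57 in YC and 2.08 and 1.80 in YD. NDL25 thus lay within the range of the 4 strains with high Cd74, and both YC pools lay below it. Csf1r, the receptor that macrophages depend on, read 0.28 and 0.14 in NDL25, 0.47 and 0.41 in NYPD, 0.99 and 0.48 in YB, 0.30 and 0.44 in YD, -0.02 and 0.24 in YC and 0.06 and -0.09 in YE. The NYPD, YB and YD pools of Csf1r lay above both NDL25 pools, and those of YC and YE did not. The markers of this list did not share a single order. Lyz2 read 2.63 and 2.91 in NYPD against 1.84 and 2.19 in NDL25. Cd163 went the other way, with 1.63 and 1.47 in NYPD against 1.88 and 1.93 in NDL25. C1qc also read lower in NYPD, at 2.99 and 2.98 against 3.20 in both NDL25 pools. None of the 10 macrophage markers was called against NDL25. In YE minus NYPD, where 1.83% of all genes were called, the call was 1 of 10, Lyz2. Its difference was -1.49 ± 0.19 (limma adjusted p = 0.0190). The 8 dendritic cell markers had pool medians between 0.01 and 0.16 and the 10 B cell markers between -0.11 and 0.08. The B cell genes Cd79b and Ms4a1 lay between -3.06 and -1.67 in all pools, far below the reference. In YB minus NDL25, where 3.15% of all genes were called higher, the dendritic cell list had 1 of 8 genes called higher, Ccr7 (0.45 ± 0.08, adjusted p = 0.0255), and the B cell list 1 of 10, Blnk (1.92 ± 0.19, adjusted p = 0.00387). In the same comparison the T cell list had 1 of 10 called higher, Cd6, and the mammary epithelium list 2 of 10, Krt19 and Muc1. In YB minus NYPD, where 5.13% of all genes were called, the calls were Blnk, Cr2 and Cd6 and the dendritic cell gene Itgax, all higher, and Ms4a1, which was lower.

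Markers of other cell types were read in the same way. The 6 fibroblast markers had pool medians of -0.19 and -0.67 in NYPD, -0.23 and -1.36 in YB, -0.82 and -1.70 in YD, -1.66 and -1.70 in NDL25, -2.05 and -1.68 in YC and -1.74 and -2.37 in YE, and 0 of the 6 were called by limma in any of the 9 comparisons. The 10 mammary epithelium markers had 2.81 and 3.04 in NDL25, 2.59 and 2.74 in NYPD, 2.11 and 2.28 in YB, 2.99 and 3.18 in YC, 2.47 and 2.8 in YD and 2.47 and 2.15 in YE. Their median difference per gene in YB minus NDL25 was 0.10, above 0 although the YB pool medians were lower. The 10 T cell markers had pool medians between 0.00 and 0.25, the 6 NK cell markers between 0.14 and 0.74 and the 5 endothelium markers between 0.96 and 1.65. In YE minus NYPD 1 of the 10 epithelium markers (Krt19) and 1 of the 5 endothelium markers (Pecam1) were called lower. In that comparison 1.83% of all genes were called. The NK cell list had 0 of 6 called in the 9 comparisons. The part of these cell types in the class I and class II differences was not tested. All of these markers, like the 50 genes, were compared as ratios to the same reference RNA.

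**Figure D5:**
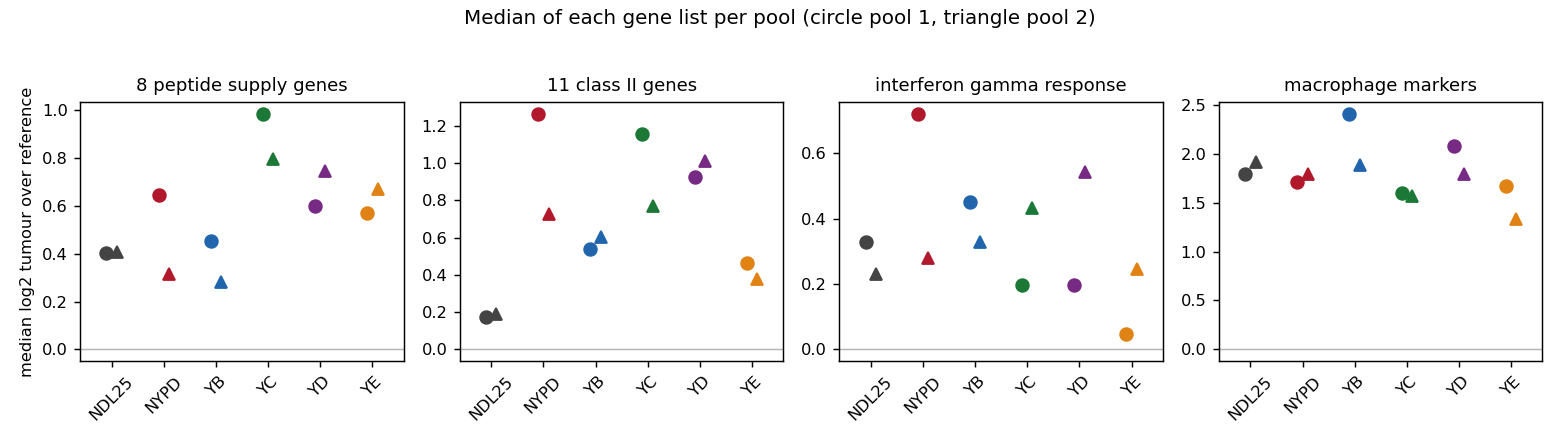
Median log2 tumour over reference (y axis, own range in each panel) of 4 gene lists in each pool of the 6 strains (x axis); circles are pool 1 and triangles pool 2. The class II medians of NDL25, 0.17 and 0.19, lie below those of the other strains, and the macrophage medians of NDL25, 1.80 and 1.91, lie within the range of the other strains.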

How the data were processed

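The deposited scanner files hold mean spot intensity and local background intensity per channel, per the file headers, written by Agilent Feature Extraction. The authors also deposited 1 log2 ratio per pool and probe, used as an alternative. Their log base is assumed from the match with the scanner values. Of their making, RMA, limma and R 2.3.0 are recorded in the submitters' processing notes, and further steps are not given in the sources used here. Intensities were corrected by normexp (offset 50), normalised by loess, turned to tumour over reference and averaged over each dye pair in limma 3.58.1 (R 4.3.3, package data.table, version 1.17.8). Spots with an outlier mark were dropped. Probes had to be well above background for tumour RNA on at least 4 arrays. One limma model gave each strain a mean over all 12 pools, with Benjamini-Hochberg adjustment over 28680 genes. SE is its moderated standard error, with n = 2 pools a strain. Pools of 1 strain come from different tumours, and their number limits the precision.

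Named were the classical class I, peptide supply and class II genes, called genes and the 4 other heavy chains with the widest range of strain means. Of these, H2-K1, H2-D1 and Ciita are given by their range over the pools. Genes and lists were chosen with earlier results of these data known. The model was tested on simulated data. Pool numbers were checked for pairing: deviations of pools of equal number correlated over 0.1 in 7 of 15 strain pairs, with r from -0.17 to 0.71. The main model did not treat pools of equal number as paired, though this check cannot show that they were unrelated. A pair of probes listed as Rmcs1 was read as H2-Ab1, by current symbol. One gene of the lists is not reported here.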

Additional observations from a re-analysis of the deposited data

How the results depend on the processing

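With 2 pools a strain, calls among the 50 genes were few and moved with the processing, and the cause was not tested. The share of all genes called under each alternative is not given here. The counts below therefore do not show whether the 50 genes moved more than genes at large. For YB minus NDL25 the count of 1 became 0 under median centring, the scanner software's processed signals, scaling between arrays, the authors' deposited values, the extraction session as a block, the first or second array of each pair alone, only the pools of the 2 strains, and within extraction session 2 (chosen after seeing the data). It became 2 (H2-Aa and H2-Ab1) with the mean of all probes, and H2-Aa itself reversed to -0.16 in the authors' deposited values. For YB minus NYPD the count of 1 became 0 under the scanner signals, scaling, the deposited values, either array alone and only the 2 strains. Counts of 0 became 1 with the scanner signals in NYPD minus NDL25 and YE minus NYPD (H2-Ea both times), with scaling in YD minus NYPD (H2-M9), and with the first array alone in the F test and YC minus NYPD (Tapbp). In YC minus NDL25 the first array alone gave 5 (Cd74, H2-Ab1, H2-Q1, H2-Q10 and Tapbp). On the first arrays the tumour RNA carried the dye Cy5 in both YC pools and Cy3 in both NDL25 and both NYPD pools. With 1 array of each pair, differences of YC from NDL25 and NYPD thus cannot be told apart from dye. The F test on 1 array of each pair mixes the dyes as well. With the replicate block of pool numbers the F test, NYPD minus NDL25 and YE minus NYPD each gave 1 (Cd74). The main model did not pair pools by number. Leaving out 1 pool gave 0 to 2 in the F test, 0 to 3 in YB minus NDL25 (3 without either NYPD pool: Cd74, H2-Aa and H2-Ab1), 0 to 2 in NYPD minus NDL25 and in YB minus NYPD, 0 to 1 in YC minus NYPD (without NYPD pool 1) and in YE minus NYPD (without NYPD pool 2), and 0 in the other 4 comparisons counted here (YC, YD and YE minus NDL25 and YD minus NYPD). A lone pool was assumed to vary like the other strains. Of 612 medians of gene groups under the alternatives, 570 moved by less than the spread between pools and 42 by more. The session block could not be fitted for NYPD, which had its own session. For YD and YE minus NDL25 the block rested on YC, the sole strain with arrays in both of their sessions. Saturation limits H2-K1, H2-D1 and B2m most. H2-Q7 was saturated in the tumour channel on 16 of 24 arrays, H2-T23 on 14, H2-Q1 on 11 and H2-Q10 on 9. For H2-T-ps it was 8 arrays, for H2-T10 5 and for H2-Q5 1. Dim signal limits H2-Ea, H2-M9, Ciita, H2-T3 and several H2-M10 genes.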

Other observations

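Among the genes that encode no MHC chain, Cfb, complement factor B, read 2.07 and 2.28 in NDL25, 2.78 and 1.96 in YB and 1.43 and 1.56 in YE. H2-Ke6, a steroid dehydrogenase gene, read -0.20 and 0.81 in NYPD, the widest gap between pools of a strain for that gene. Pfdn6, a prefoldin subunit, lay between -0.75 and -0.05 in all pools.

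H2-T24, a heavy chain gene with a dim probe, read 1.19 in YB pool 1 and 0.74 in NYPD pool 2, while the other 10 pools lay between -0.05 and 0.28. Its second probe read 0.33 and 0.57 in YB and -0.06 and -0.02 in NYPD. H2-M10.2 read 0.51 and 0.21 in YC and -0.26 and -0.01 in NDL25, a difference of 0.50 ± 0.13 (limma adjusted p = 0.217).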
